A study of Mus musculus with 12 samples.

Results

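Resting bone-marrow-derived macrophages (BMDMs) that had lost RasGEF1b were compared with wild-type (WT) BMDMs across all genes measured by RNA-seq. The comparison rests on the 6 untreated libraries of a series of 12, namely 3 from WT and 3 from RasGEF1b-cKO macrophages (KO below), chosen by genotype and by the absence of treatment. The other 6 libraries came from the same genotypes after lipopolysaccharide (LPS), a bacterial cell wall component, at 100 ng/ml for 4 h. Both genotypes were C57BL/6 mice of 8 to 12 weeks, and marrow from femurs and tibias was differentiated with L929 cell-conditioned medium as the source of the macrophage growth factor. The KO mice are labelled Rasgef1b-fl/fl;CMVcre: Cre, driven by a cytomegalovirus promoter that is active in all tissues and carried on the X chromosome, removes the exons lying between the loxP sites. The deletion was therefore not limited to macrophages or to the culture period, and any difference between the libraries includes what the animals carried before their marrow was taken. The KO line was generated at another institution from the one whose animal facility supplied the WT mice, so genotype and colony cannot be told apart. The study's methods call the RNA samples of each condition independent and biological replicates, and the number of mice behind them is not given in the sources used here, so p-values measure the spread between these samples.

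RasGEF1b is a guanine nucleotide exchange factor: it loads small GTPases of the Ras superfamily with GTP and so switches them on, and Rap2 proteins are its known substrates. In macrophages the gene is known for its induction by Toll-like receptor ligands such as LPS. Rap GTPases act in cell adhesion, in the cytoskeleton and in signalling to protein kinases.

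The deletion removes exons 7 and 8 of *Rasgef1b*, which lies on the minus strand at chr5:99217426-99729065 (GRCm38). In the longest coding transcript of the annotation these exons hold 199 of 2990 nucleotides (6.66%), within the coding sequence. They are shown because they are the part of the gene that separates the genotypes, in lower case throughout, 5′ to 3′ on the transcribed strand. Exon 7, chr5:99232302-99232397, is 96 nucleotides long, and exon 8, chr5:99232091-99232193, is 103 nucleotides long.
exon 7: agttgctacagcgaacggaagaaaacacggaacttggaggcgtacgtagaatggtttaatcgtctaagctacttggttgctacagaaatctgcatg
exon 8: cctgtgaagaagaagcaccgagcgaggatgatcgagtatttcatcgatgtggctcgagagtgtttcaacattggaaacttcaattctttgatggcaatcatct

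Values are normalized read counts: reads per gene divided by 1 size factor for each library, which puts libraries of different depth on 1 scale but leaves gene length in. Between 20329661 and 24977356 reads fell in genes in the 6 libraries. Of 55487 gene models, 29523 had at least 1 read in these libraries, and the 12461 with a mean of at least 10 normalized counts were tested. KO replicate 2 stands apart: the gene model CT010467.1, which collects ribosomal RNA reads, took 5.06% of its reads against 0.0416% to 0.0648% in the other 5 libraries, and results are given without this library where it bears on them. *Xist* and the Y-linked genes showed that WT replicate 1 and KO replicate 2 came from females and the other 4 from males. *Nnt*, a gene partly deleted in the C57BL/6J substrain, was at 2.86 to 7.26 in all 6 libraries. The 8 macrophage markers (*Adgre1*, *Itgam*, *Cd68*, *Csf1r*, *Mertk*, *Fcgr1*, *Lyz2* and *Cd14*) summed to between 215104 and 323497 with overlapping groups, and none of the 8 passed limma, DESeq2 or edgeR, with 3 at an unadjusted limma p under 0.05. Among B cell markers, *Ighm* was at 230.4 to 1082 in WT and 491 to 695 in KO libraries, and *Cd79b* at 30.4 to 67.7 in WT and 30.8 to 73.4 in KO libraries, neither past limma, DESeq2 or edgeR. *Cd79a* had 38 reads over the 6 libraries and *Pax5* none. Among mast cell markers, *Kit* had 46 reads and *Cpa3* 24, and *Fcer1a*, *Tpsb2* and *Mcpt4* none. Of the NK cell markers, *Klrb1c* had 13 reads and *Ncr1* none. A count of 0 allows up to 3 reads over these libraries, for counting error only.

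Values of single libraries below follow the order of replicates 1, 2 and 3, group values are means ± SD with n = 3 each, and fold changes are KO over WT on the scale of log2(normalized count + 1), which understates changes of low genes. *Rasgef1b* itself was at 2171, 2001 and 2043 in WT libraries and 695, 545 and 587 in KO libraries. Every KO library lay below every WT library, with a log2 fold change of -1.77 ± 0.089 (SE, limma adjusted p = 1.29e-04), and 609 ± 77.4 normalized counts remained in KO macrophages. The table counts reads per gene, so reads over the 2 deleted exons cannot be told apart from reads over the 12 that stay. Per kilobase of exon the gene fell from 150.1 to 44.1 normalized counts. The fold change was -1.87 to -1.70 with 1 library left out, with limma adjusted p values up to 0.00264.

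The paralogs were low. *Rasgef1a* was at 126, 156 and 176 in WT libraries and 117, 152 and 176 in KO libraries, with a log2 fold change of -0.045 (limma adjusted p = 0.958) and a 95% interval of -0.44 to 0.35. *Rasgef1c* had 1 read in the 6 libraries together. Of the substrates, *Rap2a* was at 2124, 2311 and 2101 in WT libraries and 2732, 2662 and 2563 in KO libraries. The groups did not overlap, as for 16.4% of all genes tested, but the log2 fold change of 0.28 gave a limma adjusted p = 0.083. *Rap2b* had a log2 fold change of 0.17 (95% interval 0.022 to 0.31) and *Rap2c* one of -0.0053 (95% interval -0.14 to 0.13), neither past the limma test. Of 9 tested Rap2 effectors and partners, 15 Ras, Rap and Ral GTPases and 21 GTPase-activating proteins, none passed an adjusted p under 0.05 in limma. An unadjusted p under 0.05 was met by 1, 3 and 5 of them, DESeq2 passed 0, 1 and 1, and edgeR 0. Over all genes, 5.75% met an unadjusted limma p under 0.05 in the higher direction and 5.05% in the lower, and DESeq2 passed 2.62%. Among 19 tested exchange factors for Ras and Rap, 4 higher and 5 lower met an unadjusted p, and DESeq2 passed 1 higher and 2 lower. *Rasgrp3*, which activates Ras and Rap1, was the single one beside *Rasgef1b* with a limma adjusted p under 0.05. It was at 1239, 1384 and 1380.4 in WT libraries and 1035, 934 and 1038 in KO libraries. Its log2 fold change was -0.41 (limma adjusted p = 0.0474), and it ranged over -0.47 to -0.36 with 1 library left out. *Rasgrp3* missed an adjusted p of 0.05 without WT replicate 1, 2 or 3 or KO replicate 1, 2 or 3, with limma adjusted p values up to 0.2.

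Across the whole table, 24 genes differed by at least 2-fold with an adjusted p under 0.05 (limma with Benjamini-Hochberg adjustment), which is 0.193% of the genes tested. Of these, 12 were higher in KO macrophages (0.0963%) and 12 lower (0.0963%). The 24 are named called genes below. At an adjusted p under 0.05 with no limit on the fold, 32 genes were higher (0.257%) and 35 lower (0.281%), together 0.538%. The 2 groups of libraries did not overlap for any of the 67, as for 16.4% of all genes tested. An unadjusted p under 0.05 was met by 716 genes in the higher direction (5.75%) and 629 in the lower (5.05%). The median log2 fold change over all tested genes was -0.0095, and between -0.011 and 0.0092 under 5 scalings. Each of these scalings brings the bulk of genes to the same level, so a median near 0 cannot show that no shared shift occurred. Of the genes tested, 46.6% had a log2 fold change above 0 and 53.4% below.

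How large a difference could be seen depended on the level of the gene. Of the 3077 genes with a mean of 10 to 100 normalized counts, 4 rose and 11 fell, 14 of these 15 were called genes, and the median standard error was 0.24 on the log2 scale. Of the 5951 genes at 100 to 1000, 19 rose and 9 fell, 7 of them called, with a median standard error of 0.088. Of the 3233 genes at 1000 to 10000, 9 rose and 15 fell with 3 calls, and a log2 fold change of 0.36 in size was enough to pass there. None of the 200 genes above 10000 passed with limma, where DESeq2 gave 15 of them and edgeR 0, and 32 had an unadjusted limma p under 0.05. On the same reads, recovered from the normalized counts, DESeq2 called 50 genes (0.401%), all 24 among them, and edgeR called 18 (0.144%), all of which are among the 24. Of the 67 genes, 67 passed an adjusted p under 0.05 in DESeq2, where 326 genes did (2.62%), and 55 passed it in edgeR.

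**Figure D1:**
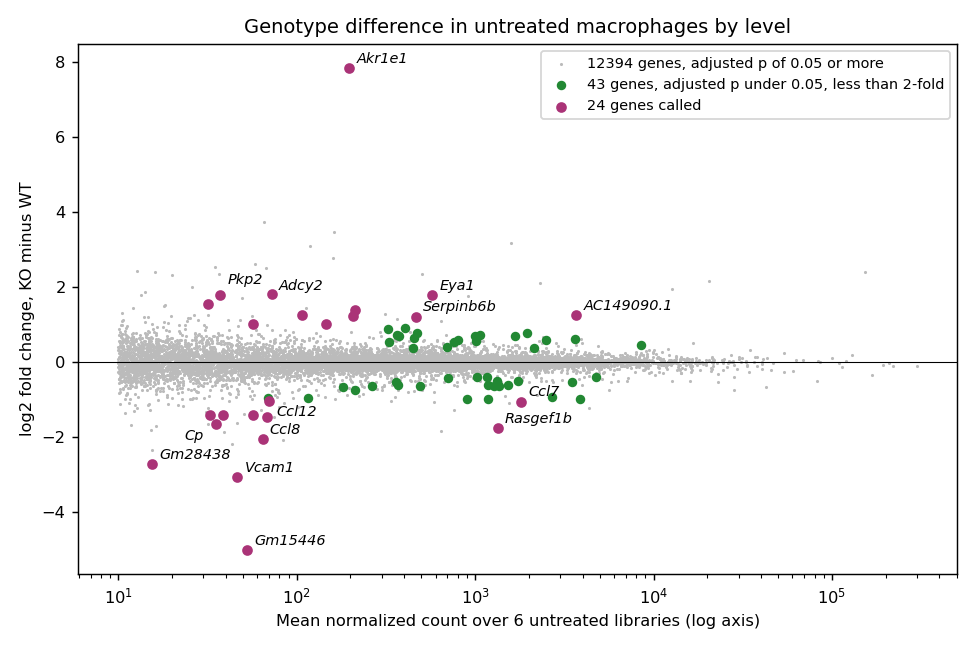
Log2 fold change of KO over WT untreated macrophages (vertical axis) against the mean normalized count on a log axis (horizontal axis) for the 12461 genes tested; large coloured points are the 24 called genes and the 43 further genes with a limma adjusted p under 0.05. The 12 called genes that rose and the 12 that fell lie beyond a log2 fold change of 1, mostly at mean counts under 100, and *Akr1e1* stands at 7.85.

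Single libraries weighed on these counts. With 1 of the 6 libraries left out, the number of genes past an adjusted p under 0.05 was 13, 6 and 47 as WT replicates 1, 2 and 3 were dropped and 59, 36 and 8 as KO replicates 1, 2 and 3 were. The 5 genes that passed in all 6 of these fits were *Rasgef1b*, *Akr1e1*, *Eya1*, *Ccl4* and AC149090.1. *Ccl2* and *Hpse* passed in 5, and 14 of the 67 passed in none: *Htr2b*, *Cxcr4*, *Ptchd1*, *Cp*, *Amz1*, *Lrrc4*, *Egln3*, *Atf7ip2*, *Pkp2*, *Fam162a*, *H2-K2*, *Rasgrp3*, *Pyroxd2* and *As3mt*. With sex as a covariate 22 of the 24 calls held, and in the 4 male libraries alone 5 did (*Rasgef1b*, *Akr1e1*, *Eya1*, *Gm15446* and AC149090.1). None of the 67 genes changed direction in any of these fits, which adds no support. With groups that do not overlap, leaving libraries out cannot reverse a direction, and sex was balanced between the genotypes.

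Genes for chemokines that draw monocytes out of the blood were lower in KO macrophages. The monocyte chemoattractant genes *Ccl2*, *Ccl7*, *Ccl12* and *Ccl8* lie in a cluster on chromosome 11, from *Ccl2* at chr11:82035571-82037453 to *Ccl8* at chr11:82115185-82116799 (GRCm38); *Ccl2* and *Ccl7* are 8.26 kb apart and *Ccl12* and *Ccl8* 11.8 kb. All 4 that could be tested, of 5 listed, passed an adjusted p under 0.05 in the lower direction, where 0.281% of all genes did, and 3 were called, where 0.0963% were. *Ccl2*, the best known ligand of the monocyte receptor CCR2, was at 5109, 5912 and 4482 in WT libraries and 2608, 2424 and 2718 in KO libraries, a log2 fold change of -0.99 ± 0.10 (SE, limma adjusted p = 0.00825), just under a 2-fold change. The KO libraries lay close together and all below the lowest WT library. *Ccl7*, another CCR2 ligand, was at 2535, 2942 and 1924 in WT libraries and 1354, 1024 and 1118 in KO libraries. *Ccl7* fell, with a log2 fold change of -1.07 ± 0.15 (SE, limma adjusted p = 0.0323). *Ccl12*, the mouse gene for monocyte chemoattractant protein 5, was at 103, 126 and 74.9 in WT libraries and 41.6, 28.2 and 35.8 in KO libraries. *Ccl12* fell, with a log2 fold change of -1.48 ± 0.22 (SE, limma adjusted p = 0.0385). *Ccl8* was at 134, 118 and 63.7 in WT libraries and 18.3, 23.9 and 27.9 in KO libraries. *Ccl8* fell, with a log2 fold change of -2.07 ± 0.29 (SE, limma adjusted p = 0.0284). WT replicate 3 was the lowest WT library for all 4 genes and still lay above every KO library. In bulk RNA, fewer cells making a transcript and less transcript per cell cannot be told apart.

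The adjusted p of the 4 genes did not always pass in the leave-one-out fits. Their direction could not change there, because the groups did not overlap. The log2 fold change of *Ccl2* was -1.09 to -0.89 with 1 library left out. *Ccl2* missed an adjusted p of 0.05 without KO replicate 3, with limma adjusted p values up to 0.05. That of *Ccl8* was -2.40 to -1.87 with 1 library left out. *Ccl8* missed an adjusted p of 0.05 without WT replicate 1 or 2 or KO replicate 2 or 3, with limma adjusted p values up to 0.135. That of *Ccl7* was -1.24 to -0.93 with 1 library left out. *Ccl7* missed an adjusted p of 0.05 without WT replicate 1 or 2 or KO replicate 2 or 3, with limma adjusted p values up to 0.129. That of *Ccl12* was -1.68 to -1.31 with 1 library left out. *Ccl12* missed an adjusted p of 0.05 without WT replicate 1 or 2 or KO replicate 2 or 3, with limma adjusted p values up to 0.146. Without the female libraries (WT replicate 1 and KO replicate 2) the median of the 4 was -1.13, against -1.28 over all 6.

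A second pair of chemokine genes on chromosome 11, 13.2 kb apart and some distance beyond that cluster, was lower as well. *Ccl4* and *Ccl3* encode macrophage inflammatory proteins. *Ccl4* was at 1142, 1248 and 1202 in WT libraries and 642, 605 and 571 in KO libraries: the 3 WT libraries and the 3 KO libraries each lay close together, giving a log2 fold change of -0.98 ± 0.065 (SE, limma adjusted p = 8.24e-04). *Ccl3* was at 1731, 1893 and 1911 in WT libraries and 1103, 1248 and 1259 in KO libraries, with a log2 fold change of -0.62 ± 0.069 (SE, limma adjusted p = 0.0162), and its fold change was -0.66 to -0.56 with 1 library left out. *Ccl3* missed an adjusted p of 0.05 without WT replicate 2 or KO replicate 3, with limma adjusted p values up to 0.0905. These were the 2 of 15 other chemokine ligands tested that passed; the 15 had a median log2 fold change of -0.13, 9 below 0 and 6 above. That median was -0.33 without WT replicate 1, and -0.23 when either of KO replicates 1 and 2 was dropped. The most abundant ligands, *Ccl6* and *Ccl9*, had log2 fold changes of -0.51 (limma adjusted p = 0.0929) and -0.13 (limma adjusted p = 0.561). *Ccl6* was at 19848, 19627 and 16731 in WT libraries and 11554, 13270.3 and 14807 in KO libraries, and passed in DESeq2 (adjusted p = 1.25e-04). Its groups did not overlap, as for 16.4% of all genes tested.

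The sequences before the start sites of 2 of the genes that fell furthest in the cluster, *Ccl8* and *Ccl12*, are shown so that a reader can see what lies there, as the 250 bases before the transcript start in the RefSeq annotation of GRCm38.p6, plus strand. Capitals mark TATAAA, the letters of a TATA box. Searched on both strands, 12.4% of the 32851 promoters of this length hold TATAAA, 1.41% hold an NF-kB motif and 6.75% hold TGANTCA (an AP-1 motif); neither of the last 2 is in these windows. A match is a description of the letters, not of a bound site.
Ccl8, chr11:82114935-82115184: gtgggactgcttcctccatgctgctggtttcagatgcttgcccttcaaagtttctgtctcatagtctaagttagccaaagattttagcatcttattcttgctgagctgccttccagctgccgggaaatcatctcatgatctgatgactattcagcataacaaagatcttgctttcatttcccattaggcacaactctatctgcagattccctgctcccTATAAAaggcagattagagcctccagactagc
Ccl12, chr11:82101595-82101844: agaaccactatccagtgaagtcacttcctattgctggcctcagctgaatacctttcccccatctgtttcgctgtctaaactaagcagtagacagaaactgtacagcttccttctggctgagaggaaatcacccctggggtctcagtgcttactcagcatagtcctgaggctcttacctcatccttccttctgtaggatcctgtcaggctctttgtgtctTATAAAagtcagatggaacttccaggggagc

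**Figure D2:**
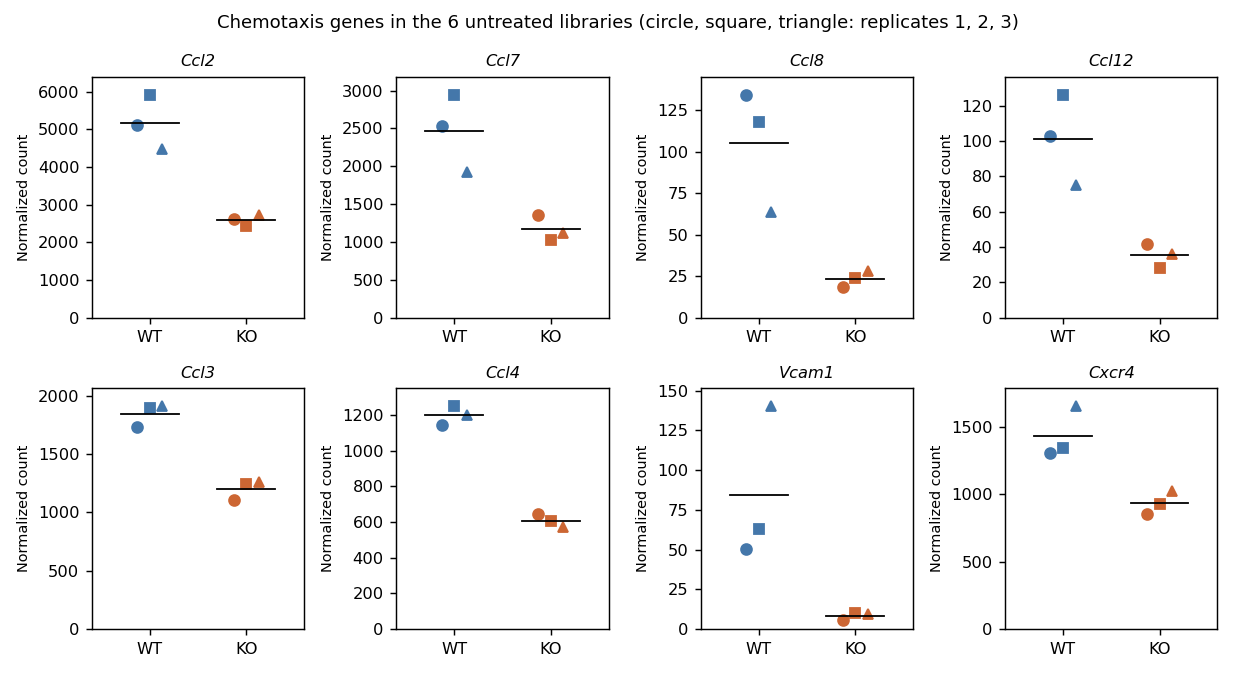
Normalized counts of *Ccl2*, *Ccl7*, *Ccl8*, *Ccl12*, *Ccl3*, *Ccl4*, *Vcam1* and *Cxcr4* (vertical axes, from 0) in each untreated library (circles, squares and triangles for replicates 1, 2 and 3; horizontal lines are means, n = 3 per genotype). In all 8 panels the 3 KO libraries lie below the 3 WT libraries; *Ccl4* has the tightest groups relative to its difference.

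Of the chemokine receptors and of the adhesion molecules, 1 gene each passed. *Cxcr4*, the receptor for Cxcl12 that holds cells in the marrow, was the 1 of 8 chemokine receptors tested that passed, at 1302, 1344 and 1652 in WT libraries and 855, 925 and 1025 in KO libraries with a log2 fold change of -0.61 ± 0.10 (SE, limma adjusted p = 0.0493); it passed in none of the leave-one-out fits. *Ccr2* was at 897, 983 and 1119 in WT libraries and 1912, 489 and 648 in KO libraries, with KO replicate 1 above and the other KO libraries below all WT libraries. *Ccr1* had a log2 fold change of 0.074 (limma adjusted p = 0.648). Among 21 adhesion molecules and integrins, *Vcam1*, the ligand of integrin alpha4 beta1, was the 1 that passed, at 50.5, 62.7 and 140.2 in WT libraries and 5.64, 10.3 and 9.31 in KO libraries. *Vcam1* fell, with a log2 fold change of -3.08 ± 0.39 (SE, limma adjusted p = 0.0213). WT replicate 3 held more than the other WT libraries, and all KO libraries were near 10 or below. Its fold change was -3.37 to -2.64 with 1 library left out. *Vcam1* missed an adjusted p of 0.05 without WT replicate 2 or KO replicate 3, with limma adjusted p values up to 0.0953. The abundant integrins *Itgb2*, *Itgb1* and *Itgam* had log2 fold changes of 0.061, -0.042 and 0.18, none past the test. Of the 21 genes, 14 were above 0 and 7 below, with a median of 0.11. An unadjusted limma p under 0.05 was met by 7 in the higher direction and 3 in the lower, against 5.75% and 5.05% of all genes. DESeq2 passed 3 higher and 1 lower, against 2.62% of all genes in either direction.

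Further surface receptors changed, 5 of them lower and 1 higher. *Fcgr2b*, the inhibitory receptor for IgG, was at 3337, 3500.5 and 3757 in WT libraries and 1924, 1435 and 2303 in KO libraries, a log2 fold change of -0.93 ± 0.15 (SE, limma adjusted p = 0.0427), the 1 of 18 C-type lectins and Fc receptors to pass. *Ly86*, which encodes MD-1, the partner of the Toll-like receptor relative RP105, was at 1798, 1406 and 1519.8 in WT libraries and 839, 631 and 928 in KO libraries. *Ly86* fell, with a log2 fold change of -0.99 ± 0.14 (SE, limma adjusted p = 0.0323). KO replicate 2 was the lowest library for both genes. *Il1rl1*, the receptor for interleukin 33, was at 252, 258 and 285 in WT libraries and 135, 184 and 157 in KO libraries (log2 fold change -0.75, limma adjusted p = 0.0465). *Folr2*, the folate receptor of macrophages, was at 2235, 2065 and 1862 in WT libraries and 1482, 1326 and 1532 in KO libraries (log2 fold change -0.50, limma adjusted p = 0.0448). *Htr2b*, a serotonin receptor, fell from 324 ± 47.9 in WT to 204 ± 2.33 in KO macrophages, and *Colec12*, a scavenger receptor, rose from 796 ± 52.8 in WT to 1326 ± 214 in KO macrophages, the 1 of 15 scavenger and efferocytosis receptors to pass. Each of these 6 genes lost its adjusted p without WT replicate 1 and without WT replicate 2, and each but *Colec12* without KO replicate 3.

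Interferon-stimulated genes were lower in KO macrophages by median and seldom past the main test. Of 43 tested, 42 had a log2 fold change below 0 with a median of -0.51, against 53.4% below 0 and a median of -0.0095 over all genes. Among the 43, *Ifit1bl1*, of the family of interferon-induced proteins with tetratricopeptide repeats, passed, at 102, 68.6 and 79.7 in WT libraries and 40.2, 23.9 and 27.9 in KO libraries. *Ifit1bl1* fell, with a log2 fold change of -1.43 ± 0.23 (SE, limma adjusted p = 0.0435), and it passed in 1 leave-one-out fit. Of the 43, 5 met an unadjusted limma p under 0.05, all lower, against 5.05% of all genes in that direction. The libraries of each genotype were far apart: the genes of the list summed to 64433, 34652 and 27435 in WT libraries and 51499, 19982 and 20730.0 in KO libraries. Replicate 1 was the highest library of both genotypes, and at each replicate number the KO library lay below the WT library. With the replicate number as a block, 18 of the 43 passed in the lower direction, where 120 of the 12461 genes tested did. The sources used here do not give such a pairing, and the study's methods describe the comparisons as unpaired. *Ifit3*, an antiviral effector, showed the same order at 2002, 688 and 370.4 in WT libraries and 1163, 147 and 199 in KO libraries (log2 fold change -1.30, limma adjusted p = 0.632). *Irf7*, the transcription factor that amplifies interferon production, was at 3431, 1323 and 656 in WT libraries and 2519.7, 404 and 445 in KO libraries (log2 fold change -0.90, limma adjusted p = 0.743). With 1 library left out the list's median was -1.001 to -0.15, lowest in size without WT replicate 1, and in the 4 male libraries it was 0.038, the opposite sign.

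Genes of antigen presentation were also lower by median. Over all genes, 5.05% met an unadjusted limma p under 0.05 in the lower direction, and 2.62% passed DESeq2 in either direction. The list members counted below at an unadjusted p or past DESeq2 were all lower. Of 20 tested genes of MHC class I and peptide loading, 18 were below 0 with a median of -0.25, and none passed limma, where 4 met an unadjusted p and 3 passed DESeq2. *H2-D1*, a classical class I heavy chain, was at 47743, 40178 and 41621 in WT libraries and 41304, 34005 and 37999 in KO libraries, and *B2m*, the light chain, was at 44857, 35526 and 32492 in WT libraries and 36827, 28145 and 28902 in KO libraries; in both, WT replicate 1 was the highest library. In the 4 male libraries the median of the class I list was 0.005, and it was -0.091 without WT replicate 1 and -0.12 without KO replicate 2. *H2-K2*, annotated as a transcribed pseudogene of the class I family, whose reads may be shared with its close relatives, was at 602 ± 54.5 in WT and 384 ± 39.8 in KO macrophages. *H2-K2* fell, with a log2 fold change of -0.65 ± 0.10 (SE, limma adjusted p = 0.0381), and it passed in none of the leave-one-out fits. The 8 MHC class II genes had a median of -0.41 with none past limma, 2 at an unadjusted p under 0.05 and 2 past DESeq2, and *Cd74*, the invariant chain, was at 1082, 1036 and 1588 in WT libraries and 978, 759 and 872 in KO libraries. The class II median was -0.20 without KO replicate 2 and -0.22 without WT replicate 3. All 7 Schlafen genes tested were below 0, with a median of -0.34 that was 0.0031 in the male libraries and -0.59 to -0.15 with 1 library left out, lowest in size without WT replicate 1 or KO replicate 2 and highest without KO replicate 1. None passed limma, 1 met an unadjusted p under 0.05 and 1 passed DESeq2.

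**Figure D3:**
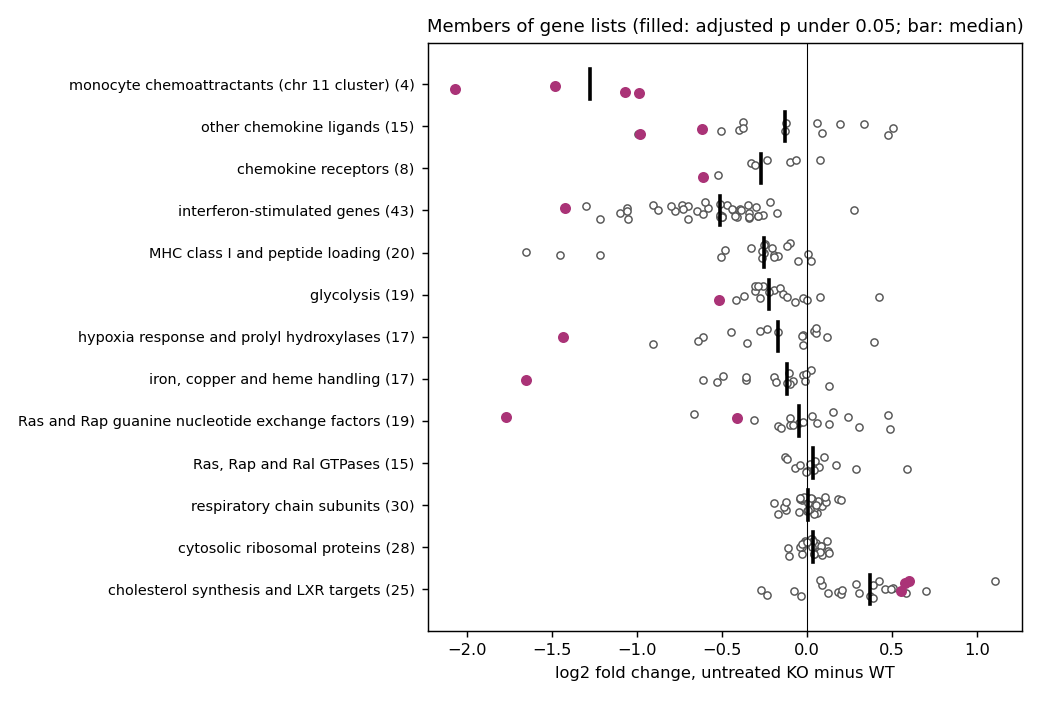
Log2 fold change of KO over WT for every tested member of 13 gene lists (1 point per gene; the line is the list's median; filled points passed a limma adjusted p under 0.05). The monocyte chemoattractants have a median of -1.28, the interferon-stimulated genes -0.51 and the cholesterol list 0.37.

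Genes of a list of cholesterol synthesis, LXR response and other lipid enzymes were higher in KO macrophages by median, and 3 passed the test. Beyond cholesterol synthesis and uptake, the list also holds *Fasn*, *Acaca*, *Lpcat3*, *Mgll* and *Ch25h*. Of the 25 genes tested, 21 had a log2 fold change above 0 with a median of 0.37, where 46.6% of all genes did. Passing an adjusted p under 0.05 were 3, all higher, against 0.257% of all genes. An unadjusted limma p under 0.05 in that direction was met by 17, against 5.75% of all genes. DESeq2 passed 15, all higher, against 2.62% of all genes in either direction. *Hmgcs1*, an early enzyme of the mevalonate pathway, was at 3115, 3153 and 2454 in WT libraries and 4222, 4588 and 4349 in KO libraries. *Hmgcs1* rose, with a log2 fold change of 0.60 ± 0.10 (SE, limma adjusted p = 0.0427). *Fdft1*, squalene synthase, was at 653, 709 and 573 in WT libraries and 945, 982 and 949 in KO libraries. *Fdft1* rose, with a log2 fold change of 0.58 ± 0.08 (SE, limma adjusted p = 0.0284). *Lss*, lanosterol synthase, was at 868, 875 and 715 in WT libraries and 1258, 1179 and 1158 in KO libraries. *Lss* rose, with a log2 fold change of 0.55 ± 0.085 (SE, limma adjusted p = 0.0411). For these 3 genes WT replicate 3 was the lowest library, and each lost its adjusted p in at least 4 of 6 leave-one-out fits.

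Further enzymes of the pathway did not overlap between genotypes without passing limma. Over all genes tested, 16.4% did not overlap. *Cyp51*, lanosterol demethylase, was at 2472, 2589.5 and 1991 in WT libraries and 3155, 3489 and 3310.2 in KO libraries (log2 fold change 0.50, limma adjusted p = 0.0744), and *Idi1*, isopentenyl diphosphate isomerase, at 530.1, 554 and 401 in WT libraries and 774, 715 and 710.3 in KO libraries (log2 fold change 0.58, limma adjusted p = 0.0874). The LXR targets *Abca1* and *Abcg1*, which export cholesterol, had log2 fold changes of -0.27 and -0.036 with overlapping libraries. The list's median was 0.25 to 0.41 with 1 library left out, 0.35 in the male libraries and 0.26 in the LPS libraries.

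The sequence before *Hmgcs1* is shown because it holds the sterol regulatory element searched for, and that of *Lss* because it is the other of these 3 genes with an entry; both are the 250 bases before the RefSeq start in GRCm38.p6, plus strand. Capitals mark TCACNCCAC, searched on both strands and held by 1.05% of the 32851 promoters; of the 16 genes of the list with a promoter entry, 1 held it. In *Hmgcs1* the element begins 137 bases before the start.
Hmgcs1, chr13:119690101-119690350: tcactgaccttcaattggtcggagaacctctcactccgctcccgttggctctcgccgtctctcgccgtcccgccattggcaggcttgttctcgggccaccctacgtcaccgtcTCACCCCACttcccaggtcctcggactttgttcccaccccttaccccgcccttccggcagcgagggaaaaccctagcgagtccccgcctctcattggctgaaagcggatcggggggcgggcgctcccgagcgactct
Lss, chr10:76531355-76531604: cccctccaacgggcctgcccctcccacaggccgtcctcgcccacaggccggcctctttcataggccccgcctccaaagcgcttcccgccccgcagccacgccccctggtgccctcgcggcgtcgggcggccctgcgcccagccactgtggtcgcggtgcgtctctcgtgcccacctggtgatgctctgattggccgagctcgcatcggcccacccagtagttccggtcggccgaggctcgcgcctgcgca

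Glycolytic genes were lower by median. Of 19 tested, 16 were below 0 with a median of -0.23, 11 met an unadjusted p under 0.05 in the lower direction (background 5.05%) and 1 passed the adjusted test. That gene, *Pfkl*, the liver-type phosphofructokinase, was at 1570.1, 1606 and 1478 in WT libraries and 961, 1202 and 1092 in KO libraries. *Pfkl* fell, with a log2 fold change of -0.52 ± 0.083 (SE, limma adjusted p = 0.0427), and it missed an adjusted p of 0.05 without WT replicate 1, 2 or 3 or KO replicate 3. *Ldha*, lactate dehydrogenase A, was at 16464, 16537 and 14538 in WT libraries and 11732, 13999.7 and 12797 in KO libraries (log2 fold change -0.30, limma adjusted p = 0.196), and *Gapdh* at 26465, 27729.8 and 25367 in WT libraries and 20743, 24675 and 22670.5 in KO libraries (log2 fold change -0.23, limma adjusted p = 0.349). KO replicate 1 was the lowest library for all 3. The list's median was -0.29 to -0.16 with 1 library left out and -0.26 in the male libraries.

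Genes of the response to low oxygen had a median of -0.17 over 17 tested, 12 below 0. An unadjusted limma p under 0.05 in the lower direction was met by 9, against 5.05% of all genes. *Egln3*, a prolyl hydroxylase that marks hypoxia-inducible factor for degradation, was the 1 that passed, at 41.5, 58.7 and 71.7 in WT libraries and 16.9, 22.2 and 21.5 in KO libraries, a log2 fold change of -1.43 ± 0.24 (SE, limma adjusted p = 0.0465), and it passed in none of the leave-one-out fits. *Bnip3*, a mitophagy receptor induced by hypoxia, was at 562, 612 and 729 in WT libraries and 379.5, 443 and 416 in KO libraries (log2 fold change -0.61, limma adjusted p = 0.0524). *Fam162a*, a mitochondrial protein, fell from 425 ± 22.4 in WT to 293 ± 25.4 in KO macrophages (log2 fold change -0.54, limma adjusted p = 0.0432), and likewise passed in none of these fits. *Cp*, ceruloplasmin, the copper ferroxidase that helps iron leave cells, was the 1 of 17 genes of iron, copper and heme handling to pass, at 44.3, 41.6 and 78.9 in WT libraries and 14.8, 16.2 and 17.2 in KO libraries, with a log2 fold change of -1.65 ± 0.26 (SE, limma adjusted p = 0.0427), and it too passed in none of the leave-one-out fits. WT replicate 3 was the highest library for both *Egln3* and *Cp*. None of 30 respiratory chain subunits and none of 28 cytosolic ribosomal proteins passed limma, DESeq2 or edgeR, and none met an unadjusted limma p under 0.05.

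**Figure D4:**
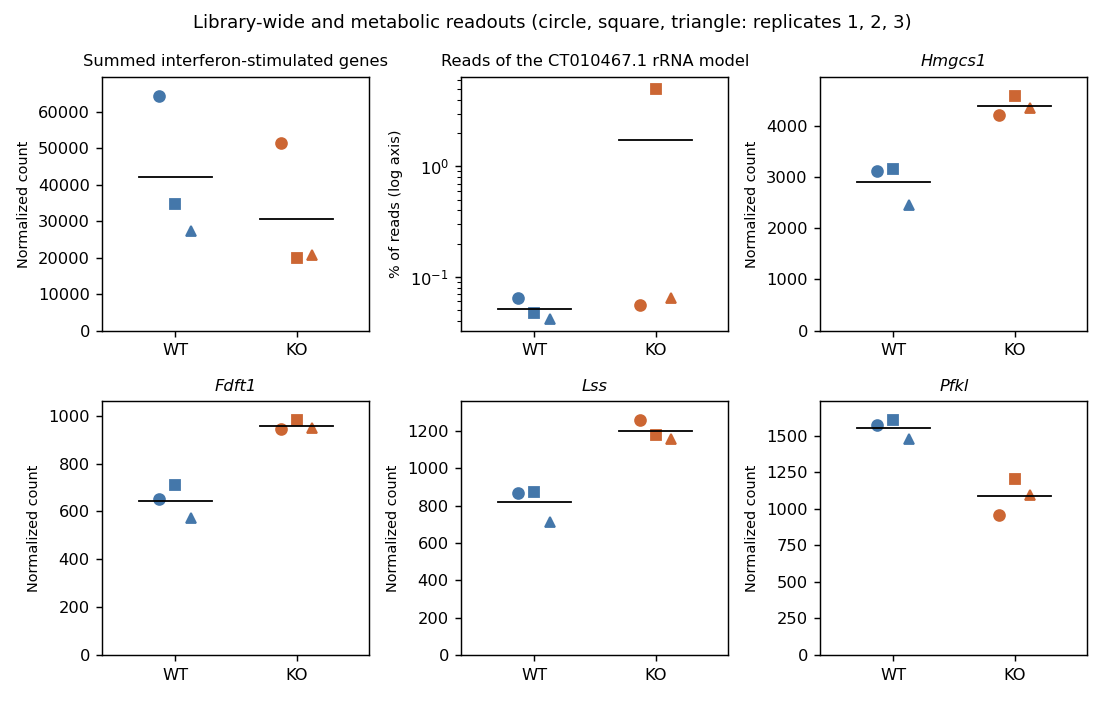
Values of each untreated library for the summed interferon-stimulated genes, the percent of reads in CT010467.1, and the normalized counts of *Hmgcs1*, *Fdft1*, *Lss* and *Pfkl* (circles, squares and triangles for replicates 1, 2 and 3; lines are means; the percent of reads is on a log axis). The interferon sum is highest in replicate 1 of each genotype and overlaps, KO replicate 2 alone reaches 5.06% of reads in CT010467.1, and the 4 single genes do not overlap between genotypes.

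Among genes of growth signalling, a few fell while most of their lists did not pass. *Dusp6*, a phosphatase that inactivates ERK and is itself induced by ERK, was at 1558, 1707 and 1436 in WT libraries and 1062, 1012 and 921 in KO libraries. *Dusp6* fell, with a log2 fold change of -0.65 ± 0.079 (SE, limma adjusted p = 0.0188); it was the 1 of 25 immediate early and ERK feedback genes to pass. *Ccnd1*, cyclin D1, was at 5306, 5750.1 and 5128 in WT libraries and 4238, 4099.6 and 3882 in KO libraries, with a log2 fold change of -0.40 ± 0.061 (SE, limma adjusted p = 0.0397), and was the 1 of 27 cell cycle genes to pass. The other members leaned the other way: 18 of the 27 were above 0, with a median of 0.093. An unadjusted limma p under 0.05 was met by 8 in the higher direction and 1 in the lower, against 5.75% and 5.05% of all genes. DESeq2 passed 2 higher and 1 lower, against 2.62% of all genes in either direction. The median was 0.055 to 0.21 with 1 library left out, the lowest without KO replicate 2 and the highest without WT replicate 2. *Pdgfc*, a platelet-derived growth factor, fell from 154 ± 8.83 in WT to 77.9 ± 8.46 in KO macrophages (log2 fold change -0.97, limma adjusted p = 0.0188). *Pdgfb*, its relative, rose from 1871 ± 68.3 in WT to 2398 ± 113 in KO macrophages (log2 fold change 0.36, limma adjusted p = 0.0427). *Phlpp1*, a phosphatase of the kinase AKT, was at 376, 327 and 343 in WT libraries and 597, 559 and 641 in KO libraries. *Phlpp1* rose, with a log2 fold change of 0.78 ± 0.08 (SE, limma adjusted p = 0.0112). *Tob1*, an antiproliferative transcriptional cofactor, rose from 268 ± 2.12 in WT to 389 ± 16.9 in KO macrophages. Of the 6 leave-one-out fits, *Phlpp1* passed an adjusted p of 0.05 in 4, *Dusp6* and *Pdgfc* in 3, *Tob1* in 2, and *Ccnd1* and *Pdgfb* in 1.

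Genes of the cytoskeleton, matrix and membranes were on both sides. *Cass4*, an adaptor of focal adhesions, fell from 447 ± 18.7 in WT to 292 ± 21.6 in KO macrophages (log2 fold change -0.61, limma adjusted p = 0.0229). *Hpse*, heparanase, which cuts heparan sulphate, was at 4176, 4068 and 4201 in WT libraries and 2781, 2771 and 3006 in KO libraries, with a log2 fold change of -0.54 ± 0.052 (SE, limma adjusted p = 0.00825) and an adjusted p under 0.05 with any 1 library left out except WT replicate 2. *Mical1*, which oxidizes actin, rose from 622 ± 23.5 in WT to 898 ± 59.5 in KO macrophages (log2 fold change 0.53, limma adjusted p = 0.0213). *Vwf*, von Willebrand factor, was at 1094, 1295 and 1457 in WT libraries and 1922, 2130.2 and 2130.2 in KO libraries. *Vwf* rose, with a log2 fold change of 0.69 ± 0.10 (SE, limma adjusted p = 0.0323). *Emp1*, an epithelial membrane protein, was the most abundant of the 32 genes that rose, at 7409.9, 7286 and 6918 in WT libraries and 10824, 9346 and 9224 in KO libraries. *Emp1* rose, with a log2 fold change of 0.44 ± 0.073 (SE, limma adjusted p = 0.0471). *Gpr137b*, a lysosomal membrane protein, was at 2143, 1912 and 1951 in WT libraries and 2844, 3143 and 2936 in KO libraries. *Gpr137b* rose, with a log2 fold change of 0.57 ± 0.063 (SE, limma adjusted p = 0.0162). *Mcoln2*, a cation channel of endosomes and lysosomes, fell from 1165 ± 70.7 in WT to 882 ± 35.9 in KO macrophages. Of the 6 leave-one-out fits, *Gpr137b* passed in 4, *Cass4* and *Mical1* in 3, *Vwf* in 2, and *Emp1* and *Mcoln2* in 1. No gene of the 25 lysosomal proteases and proton pump subunits passed limma, where 1 in each direction met an unadjusted p under 0.05 and DESeq2 and edgeR gave 0.

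The largest fitted change among the 12461 genes was that of *Akr1e1*, an aldo-keto reductase that reduces anhydrofructose, at chr13:4590750-4609174. It was at 0.692, 0.66 and 0.797 in WT libraries and 396, 388 and 397 in KO libraries, which is 3 reads in the WT libraries together and 1570 in the KO libraries, a ratio of 554 after scaling for depth (95% counting interval 189 to 2688). The log2 fold change of 7.85 ± 0.18 (SE, limma adjusted p = 3.77e-07) was 7.82 to 7.88 with 1 library left out, with limma adjusted p values up to 1.39e-04. None of the 16 remaining tested aldo-keto reductases and glycogen enzymes passed limma, DESeq2 or edgeR, and 0 met an unadjusted limma p under 0.05. *Gm15446*, a protein-coding gene at chr5:109923400-109943936, showed the reverse: it was at 104, 100.3 and 102 in WT libraries and 4.23, 0 and 5.01 in KO libraries, with a log2 fold change of -5.03 ± 0.61 (SE, limma adjusted p = 0.0188), and its fold change was -5.49 to -4.20 with 1 library left out. *Gm15446* missed an adjusted p of 0.05 without WT replicate 1, 2 or 3 or KO replicate 3, with limma adjusted p values up to 0.107. The WT libraries were within a few counts of each other and KO libraries near 0.

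*Gm15446* lies on chromosome 5, 10.2 Mb from *Rasgef1b*, and *Hpse* 950.4 kb from it. Within 20 Mb on either side of *Rasgef1b*, 215 further genes were tested, these 2 passed an adjusted p under 0.05, 1 was called (over all genes 0.538% passed and 0.193% were called) and the median log2 fold change was 0.0035. AC149090.1, on the unplaced scaffold JH584304.1, was at 2232, 2089.9 and 2225 in WT libraries and 4716, 4793 and 6039 in KO libraries, with a log2 fold change of 1.24 ± 0.093 (SE, limma adjusted p = 0.00181), the highest mean level among the 24 called genes. *Gm28438*, annotated as an unprocessed pseudogene, whose reads may be shared with its parent sequence, was at 23.5, 24.4 and 34.3 in WT libraries and 2.12, 5.13 and 2.86 in KO libraries (log2 fold change -2.74, limma adjusted p = 0.0219). *Dynlt1b*, a dynein light chain, and *Tmem181b-ps*, a transcribed pseudogene, are neighbours 2.23 kb apart on chromosome 17 with close copies elsewhere, so that reads may be split between copies. *Dynlt1b* was at 255, 278 and 296 in WT libraries and 477, 404 and 471 in KO libraries, and *Tmem181b-ps* at 338, 359 and 366 in WT libraries and 578, 511 and 562 in KO libraries. Both rose, with log2 fold changes of 0.70 (limma adjusted p = 0.0229) and 0.63 (limma adjusted p = 0.0162). Each of these 2 passed in 3 leave-one-out fits, and *Gm28438* in 2.

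Further called genes that rose have varied roles. *Eya1*, a transcriptional coactivator and tyrosine phosphatase of the eyes absent family, was at 307, 214 and 256 in WT libraries and 801, 826 and 1039.7 in KO libraries, with a log2 fold change of 1.78 ± 0.14 (SE, limma adjusted p = 0.00254), and it was 1.65 to 1.91 with 1 library left out, with limma adjusted p values up to 0.0166. *Adcy2*, an adenylyl cyclase that makes cyclic AMP, was at 29.8, 29.04 and 32.7 in WT libraries and 72.7, 129 and 140.3 in KO libraries. *Adcy2* rose, with a log2 fold change of 1.81 ± 0.24 (SE, limma adjusted p = 0.0254). *Pde1c*, a calmodulin-dependent phosphodiesterase that breaks cyclic nucleotides down, was at 143, 99.01 and 123 in WT libraries and 216, 369 and 289 in KO libraries. *Pde1c* rose, with a log2 fold change of 1.24 ± 0.20 (SE, limma adjusted p = 0.0465). These 2 were the genes that passed among 26 of cyclic nucleotide signalling, whose median was 0.0035. For both, KO replicate 1 was the lowest of the KO libraries and lay above the WT libraries. Each passed in 1 leave-one-out fit, that without KO replicate 1.

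*Pkp2*, plakophilin 2 of desmosomes, was at 19.4, 11.2 and 18.3 in WT libraries and 49.4, 76.1 and 48.7 in KO libraries (log2 fold change 1.78, limma adjusted p = 0.0406). *Uchl1*, a deubiquitinating enzyme best known from neurons, was at 119, 103 and 122 in WT libraries and 261, 432 and 235 in KO libraries (log2 fold change 1.37, limma adjusted p = 0.0397), with KO replicate 2 above the other KO libraries. *Serpinb6b*, a protease inhibitor, was at 248, 297 and 291 in WT libraries and 784, 630.2 and 531 in KO libraries (log2 fold change 1.20, limma adjusted p = 0.0162); all 8 serpins tested were above 0, with a median of 0.32, and it was the 1 that passed. *Cd276*, the immune checkpoint molecule B7-H3, was at 94.8, 85.2 and 108 in WT libraries and 214, 180.4 and 191 in KO libraries (log2 fold change 1.02, limma adjusted p = 0.0182). *Ppic*, cyclophilin C, was at 52.6, 60.7 and 76.5 in WT libraries and 119, 186 and 151 in KO libraries (log2 fold change 1.24, limma adjusted p = 0.0427). *Atf7ip2* was at 17.3, 17.2 and 12.7 in WT libraries and 47.97, 54.7 and 40.8 in KO libraries (log2 fold change 1.55, limma adjusted p = 0.0273), and *Lrrc4*, a leucine-rich repeat protein of synapses, at 32.5, 37.6 and 41.4 in WT libraries and 83.9, 66.7 and 77.3 in KO libraries (log2 fold change 1.01, limma adjusted p = 0.0427). *Pkp2*, *Atf7ip2* and *Lrrc4* passed an adjusted p of 0.05 in none of the leave-one-out fits, and the others of this paragraph in some of them.

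Of the called genes that fell, *As3mt*, the arsenic methyltransferase, was at 87.9, 103 and 92.4 in WT libraries and 38.1, 42.8 and 56.6 in KO libraries (log2 fold change -1.04, limma adjusted p = 0.0465), and *Efcab7*, a protein of the ciliary base, was at 43.6, 50.8 and 50.2 in WT libraries and 19.8, 17.96 and 14.3 in KO libraries (log2 fold change -1.43, limma adjusted p = 0.0273). *As3mt* passed in none of the leave-one-out fits and *Efcab7* in 1. *Utp14b*, a gene of ribosomal RNA processing that rose by less than 2-fold, was at 307, 305 and 238 in WT libraries and 516, 557 and 517 in KO libraries (log2 fold change 0.91, limma adjusted p = 0.0162). *Arfgef3*, an exchange factor of the ARF type, rose from 228 ± 35.7 in WT to 418 ± 43.2 in KO macrophages (log2 fold change 0.88, limma adjusted p = 0.0323). *Psmd6*, a subunit of the proteasome's regulatory particle, was at 1477, 1457 and 1364 in WT libraries and 2561, 2112 and 2682 in KO libraries (log2 fold change 0.77, limma adjusted p = 0.0162), and *Ufd1*, a partner of the ubiquitin-dependent ATPase p97, at 749, 770.3 and 745 in WT libraries and 1096, 1456 and 1149 in KO libraries (log2 fold change 0.70, limma adjusted p = 0.0323). *Galnt12*, which starts mucin-type O-glycans, rose from 287 ± 35.1 in WT to 458 ± 23.01 in KO macrophages. Among those that fell, *Arrdc3*, an arrestin domain protein, went from 1667 ± 177 in WT to 1059 ± 89.3 in KO macrophages (log2 fold change -0.65, limma adjusted p = 0.0286). *Ptchd1*, on the X chromosome, was at 246, 213 and 217 in WT libraries and 138, 140.2 and 143 in KO libraries (log2 fold change -0.67, limma adjusted p = 0.0273). *Pyroxd2* and *Prune2* fell, with log2 fold changes of -0.97 (limma adjusted p = 0.0418) and -0.43 (limma adjusted p = 0.0262), and *Amz1* and *Adgrl2* rose with 0.37 (limma adjusted p = 0.0465) and 0.38 (limma adjusted p = 0.0427). In leave-one-out fits *Utp14b* passed in 4, *Psmd6* and *Prune2* in 3, and *Ufd1* and *Galnt12* in 2. *Arfgef3*, *Arrdc3* and *Adgrl2* passed in 1 of them, and *Ptchd1*, *Pyroxd2* and *Amz1* in none.

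Below the filter, *Gm16867* had no read in the WT libraries and 45 in the KO libraries (22, 11 and 12), at least 15.6-fold higher against a floor of 3 reads over the WT group. *Gdnf*, a neurotrophic factor gene, had none in WT and 19 in KO libraries (6, 8 and 5), at least 6.82-fold higher. Both were chosen after their values were seen and carry no test, and the bounds cover counting error only.

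At the other end of the range, the 10 protein-coding genes with the highest level per kilobase in WT macrophages (*Lyz2*, *Psap*, *mt-Co1*, *Ftl1*, *Fth1*, *Spp1*, *Ctsb*, *Ctsd*, *Lgals3* and *B2m*) include none that passed limma or edgeR, while 2 met an unadjusted limma p under 0.05 and 1 passed DESeq2. *Spp1*, osteopontin, came closest, at 100402, 103817 and 86049 in WT libraries and 68089.8, 65648 and 69620.4 in KO libraries. The groups did not overlap, as for 16.4% of all genes tested. The log2 fold change of -0.51 had a limma adjusted p = 0.0874 and a DESeq2 adjusted p = 6.01e-08. *Lyz2*, lysozyme, was at 165054, 180744 and 216518 in WT libraries and 140884, 127644 and 170128 in KO libraries (log2 fold change -0.36, limma adjusted p = 0.461), with overlapping groups.

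DESeq2 called 26 genes that limma did not, 13 in each direction. The fold changes of these genes are DESeq2's own, fitted on reads. Among the higher ones, *Jag2*, a Notch ligand, was at 37.4, 66.7 and 81.2 in WT libraries and 199.6, 139 and 149.7 in KO libraries, with a DESeq2 log2 fold change of 1.40 (DESeq2 adjusted p = 3.39e-06, limma adjusted p = 0.0744). Among the 10 with the smallest adjusted p were also *Ptgfrn*, *Col4a2*, *Mgll*, *Cpne8*, *Cytip*, *Zfp827*, *Chst10* and *Cd200*. Among the lower ones, *Flt1*, a receptor for vascular endothelial growth factor, was at 80.3, 75.9 and 109 in WT libraries and 39.5, 50.5 and 22.2 in KO libraries, with a DESeq2 log2 fold change of -1.25 (DESeq2 adjusted p = 0.00143, limma adjusted p = 0.12). *Slfn4*, a Schlafen gene of myeloid cells, was at 107, 53.5 and 28.7 in WT libraries and 20.5, 16.2 and 8.59 in KO libraries, with a DESeq2 log2 fold change of -2.07 (DESeq2 adjusted p = 5.47e-04, limma adjusted p = 0.156). *H2-Q7* and *H2-Q6*, non-classical class I genes with near-identical relatives, had DESeq2 log2 fold changes of -1.65 (DESeq2 adjusted p = 6.62e-04, limma adjusted p = 0.073) and -1.53 (DESeq2 adjusted p = 0.00876, limma adjusted p = 0.15). The remaining 6 of the lower 10 were G530011O06Rik, *Ier3*, an immediate early gene, *Chp2*, *Gm49980*, BC064078 and *Sorbs3*. None of these calls was shared by edgeR.

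The same genes were followed in the LPS libraries, where KO was again compared with WT. Each replicate number had the same sex in both states, so an untreated and an LPS library of 1 number may come from the same animal, which the sources used here do not give. The study's methods describe the comparisons between genotypes and conditions as unpaired. Of the 24 called genes, all could be tested there, 22 kept the sign (not *Ifit1bl1* and *Lrrc4*), 12 passed an adjusted p under 0.05 with the same sign and 10 were called, where 0.232% of the genes tested in LPS libraries were. Of the 67 genes, 66 could be tested, 62 kept the sign and 23 passed. *Akr1e1* had a log2 fold change of 7.95 (limma adjusted p = 5.10e-05) after LPS and *Eya1* one of 2.15 (limma adjusted p = 0.00665). For the chemokines of the chromosome 11 cluster the values were smaller in size: -0.09 (limma adjusted p = 0.862) for *Ccl2*, -0.22 (limma adjusted p = 0.472) for *Ccl7*, -0.38 (limma adjusted p = 0.222) for *Ccl12* and -0.78 (limma adjusted p = 0.0183) for *Ccl8*. *Vcam1* had a log2 fold change of -0.25 (limma adjusted p = 0.744) after LPS.

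Whether these values differ between the states was tested as the interaction of genotype and LPS in 1 limma fit over the 12 libraries. 1 of 12711 genes (0.00787%) passed an adjusted p under 0.05, *Ccl4*, with a difference of the log2 fold changes, LPS minus untreated, of 0.93 (limma adjusted p = 3.69e-04). None of the 24 called genes passed in limma and 7 met an unadjusted p under 0.05. The difference was 0.90 (limma adjusted p = 0.244) for *Ccl2*, 0.67 (limma adjusted p = 0.102) for *Ccl3*, 1.29 (limma adjusted p = 0.651) for *Ccl8* and 2.83 (limma adjusted p = 0.131) for *Vcam1*. With the replicate number within genotype as a block, 6 genes passed, 3 of them among the 24. In that paired fit the difference was 0.93 (limma adjusted p = 0.00161) for *Ccl4*, -0.99 (limma adjusted p = 0.00161) for *Nos2*, the inducible nitric oxide synthase, and 0.67 (limma adjusted p = 0.00887) for *Ccl3*. Of the called genes it was 1.45 (limma adjusted p = 0.00267) for *Cp*, 2.83 (limma adjusted p = 0.0159) for *Vcam1* and 1.56 (limma adjusted p = 0.0159) for *Ifit1bl1*.

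**Figure D5:**
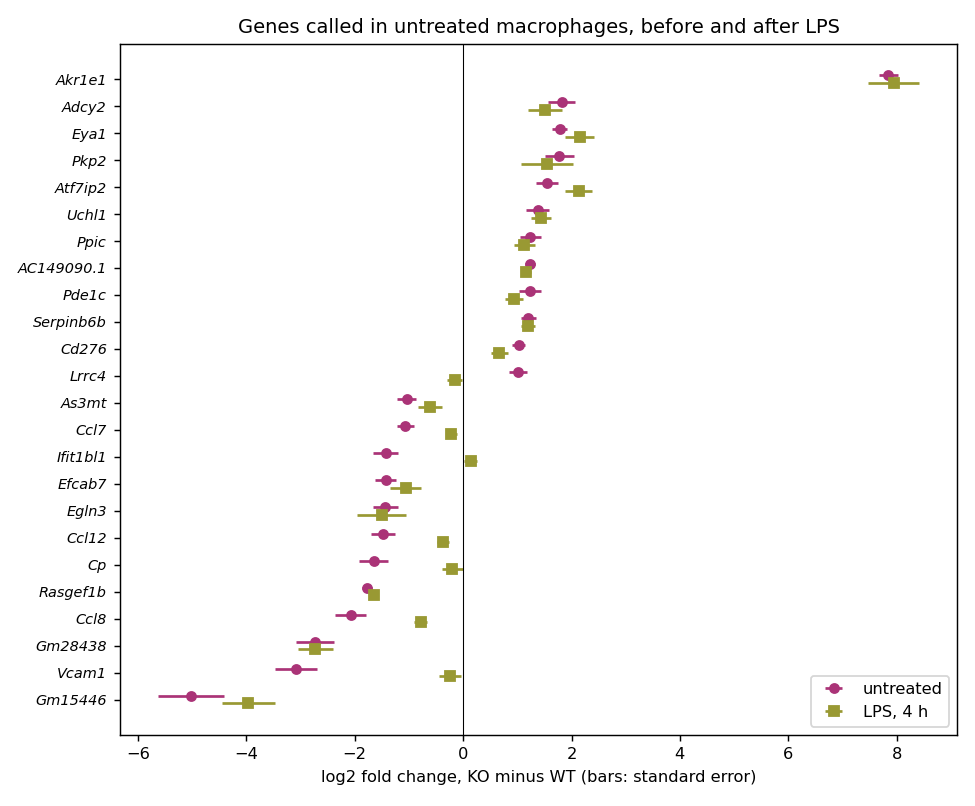
Log2 fold change of KO over WT (points, with standard errors as bars) for the 24 called genes in untreated libraries and in LPS libraries (n = 3 per genotype and state). *Akr1e1* is at 7.85 untreated and 7.95 after LPS, and 22 of the 24 genes lie on the same side of 0 in both states.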

How the data were processed

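Poly(A) RNA of BMDMs was sequenced by the study as paired-end reads of 150 bases. Per the labels and the study's methods, the authors used bcl2fastq 2.17, Trimmomatic 0.39, STAR 2.7.4a on GRCm38, featureCounts of Subread 2.0.1 and DESeq2 1.32.0 in R 4.1.2. The deposited values are normalized counts (a signal per gene: reads divided by 1 DESeq2 size factor for each library, over all 12), with gene length and low genes left in. Strand setting was not given in the sources used here, so overlapping genes cannot be told apart. Dividing each library by its smallest step gave whole reads for 100.0% of values (tolerance 1e-06 reads), and DESeq2 1.42.0 and edgeR 4.0.16 were run on those reads as alternatives. The fits were tested on simulated data.

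The main test was limma 3.58.1 with a trended variance (R 4.3.3) on log2(normalized count + 1) of the 6 untreated libraries, for genes with a mean of at least 10, with Benjamini-Hochberg adjustment over all genes tested; calls needed an adjusted p under 0.05 and a log2 fold change of at least 1 in size. The interaction used all 12 libraries. Untreated and LPS libraries of the same genotype and number shared their sex, and the correlations of their deviations from the group means were 0.17 to 0.33 over all genes and 0.096 to 0.24 over autosomal genes, each the highest for its own number, so the paired fit is given beside the interaction. The study's own comparisons were unpaired. Depths of 20329661 to 24977356 reads set the precision, and bounds and counting intervals (95%, exact) cover counting error only. Alternatives changed the pseudocount, filter, scaling, variance, tool, threshold and libraries, with a replicate block and, added after seeing the data, sex as a covariate and the male libraries alone. Gene models were placed with GENCODE M21, which holds 55227 of them, and 51 gene lists with 909 genes were used, and 8 of the genes are not analysed here. The genes, lists and tests were chosen with earlier results of these data known. Named were all called genes, the targeted gene with its paralogs and Rap2 genes, the 15 genes in each direction with the smallest adjusted p, up to 10 in each direction called by DESeq2 or edgeR alone, list members with an adjusted p under 0.05 or otherwise up to 4 of the highest level, the 10 genes of highest level per length, and the ribosomal, Nnt, Xist and Y-linked genes. Further genes past an adjusted p under 0.05, and the low genes, were chosen after their values were seen. Promoters came from RefSeq. Some genes are not reported here.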

Additional observations from a re-analysis of the deposited data

Results flagged for a closer look

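1 result differed between the untreated and the LPS state by a test of the difference itself, in the fit without pairing. With the replicate number within genotype as a block, 6 genes passed, as given above. *Ccl4*, a macrophage inflammatory protein, was at 1142, 1248 and 1202 in WT libraries and 642, 605 and 571 in KO libraries without treatment. *Ccl4* fell, with a log2 fold change of -0.98 ± 0.065 (SE, limma adjusted p = 8.24e-04). After LPS it was at 42864 ± 714 in WT and 41434 ± 1106 in KO macrophages (SD, n = 3 each), a log2 fold change of -0.049 (limma adjusted p = 0.88). The interaction of genotype and LPS, on the log2 scale, was 0.93 (standard error 0.079, limma adjusted p = 3.69e-04 over 12711 genes). Groups of 3 libraries are too small to test single libraries as outliers. No explanation was tested.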

How the results depend on the processing

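*Rasgef1b* kept its direction and its adjusted p under every alternative run. The number of called genes, 24 (12 higher and 12 lower), changed to 42 (23 higher, 19 lower) with no filter on low values, to 11 (7 and 4) with a mean of at least 50, to 2 (1 and 1) with a variance that does not follow the level, to 50 (25 and 25) with DESeq2 and to 49 (24 and 25) with DESeq2 and no filter. With an adjusted p under 0.05 alone it was 67 (32 and 35), and with an adjusted p under 0.1 and a 2-fold change 19 were higher. In the 4 male libraries alone, an alternative chosen after seeing the data, it was 6 (3 and 3). With 1 library left out it ranged from 4 to 26, with 3 to 10 higher and 1 to 16 lower: the fewest calls came without WT replicate 2 and the most without KO replicate 1. The interaction among the called genes, 0 past an adjusted p under 0.05 in limma, was 0 to 1 with a library left out. Replicate numbers are not said to pair WT with KO samples in the sources used here, and the study's methods describe the comparisons as unpaired. Over autosomal genes, deviations of same-numbered libraries had correlations of 0.096, 0.15 and 0.17, each the highest for its own number. Over all genes they were -0.074, -0.043 and 0.25, where replicates 1 and 2 differed in sex between the genotypes. The main fit ignores the replicate number. With the replicate block 212 genes passed a limma adjusted p under 0.05, against 67, and 44 were called (20 and 24), all 24 among them. That fit also passed 18 lower interferon-stimulated genes, and 3 interactions among the called genes passed with a block. Of 1577 values of 66 further genes under alternatives, 1111 stayed on the same side of the threshold and 466 no longer passed. A reversal was seen in 0, and fits that leave libraries out could not have shown one, because the groups did not overlap. The median standard error of 0.24 below 100 normalized counts limits what small changes could be seen there.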

Other observations

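Several gene groups central to macrophage activation held no gene past limma's adjusted p under 0.05 in resting cells, a threshold that 0.538% of all genes passed. An unadjusted limma p under 0.05 in the lower direction was met by 5.05% of all genes, and 2.62% passed DESeq2 in either direction. The shares of the cytokine, NF-kB, Toll-like receptor and complement groups were larger. None of 12 tested inflammatory cytokines passed (median log2 fold change -0.021, with 2 at an unadjusted p under 0.05, both lower, and 1 past DESeq2). None of 18 NF-kB subunits and feedback genes passed (median 0.0072, 4 at an unadjusted p, all lower, and 1 past DESeq2), and none of 27 Toll-like receptors and proximal signalling genes did (median -0.032, 4 at an unadjusted p, all lower, and 1 past DESeq2). Of 13 complement components, 10 were below 0 with a median of -0.18, 5 at an unadjusted p in that direction and 1 past DESeq2, and the median was -0.24 to -0.11 with 1 library left out. Of 16 antioxidant genes, 13 were above 0 with a median of 0.17, 5 at an unadjusted p in that direction and 2 past DESeq2, against 5.75% of all genes at an unadjusted p in the higher direction, and the median was 0.094 without KO replicate 2.

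The 8 tested ribosomal RNA and satellite gene models had a median log2 fold change of 2.82, which was 1.09 without KO replicate 2, and none passed limma with or without that library. *Cd4* was at 245, 237 and 167 in WT libraries and 105, 133 and 140.3 in KO libraries, with a log2 fold change of -0.76 (limma adjusted p = 0.118), while *Cd3e* had 0 to 1.71 in these libraries.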
